A study of Arabidopsis thaliana with 6 samples.

Results

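The regions described here are the 948 CHH regions that varied between replicates in all 3 genotypes of an *Arabidopsis thaliana* endosperm bisulfite sequencing experiment. A CHH site is a cytosine followed by 2 bases other than G. Each region is a row of the WT list of variable CHH regions on the 5 nuclear chromosomes that overlapped, by 1 bp or more, a row of the same list for mat *nrpd1+/−* and a row of that for pat *nrpd1+/−*. The regions were thus chosen by measured methylation, through the authors' calls of differences between replicates in the CHH context. They are 948 of the 5254 regions in the WT list, or 18.0%. The lists for mat *nrpd1+/−* and pat *nrpd1+/−* held 7244 and 5838 regions on the same chromosomes.

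Endosperm is the nourishing tissue of the seed and carries an excess of maternal over paternal genomes. It was dissected 7 days after pollination from F1 seeds of crosses with L*er* as mother and Col-0 as father (labelled Col for WT), and the 6 samples fell into 3 genotypes of 2 replicates. In mat *nrpd1+/−*, the L*er* mother was *nrpd1−/−*. In pat *nrpd1+/−*, the Col-0 father was *nrpd1−/−*. In WT, neither parent carried the mutation. The mutant allele was *nrpd1a-4*, a T-DNA insertion in Col-0 that had been introgressed into L*er*. The authors report that introgressed Col-0 sequence was still present in the L*er* mutant plants, and do not limit it to the insertion. Each replicate pooled the endosperm of many seeds, and replicates came from different parent plants. The lists give start and end positions only, so neither the methylation level of a replicate, nor which replicate was higher, nor the depth of a sample is known from them.

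*NRPD1* encodes the largest subunit of RNA polymerase IV, which makes the precursors of the small RNAs that guide RNA-directed DNA methylation. That pathway places methylation in every sequence context and is the main source of CHH methylation at short transposons and transposon edges, while the chromomethylase CMT2 places CHH methylation in long, silent transposons. CHH sites are not symmetric between strands, so CHH methylation is not copied from the parental strand at replication and has to be placed anew. Regions that differed between replicates were marked by the authors so that they could be left out of comparisons between genotypes.

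Common segments of 6 regions are shown first, because the sequence of these regions, and above all the uneven split of their CHH sites between the strands, recurs in the results below. A common segment is the stretch listed in all 3 genotypes. The first 2 are the longest common segments, the next belongs to a region in which CG methylation also differed between genotypes, just past the bases shown, and the last 3 lie in genes that act in RNA-directed DNA methylation. All are from TAIR10 (RefSeq assembly TAIR10.1), at most the central 300 bases, on the strand with more CHH sites, 5′ to 3′, with each cytosine of a CHH site in capitals.
Intergenic, chr2:4141701-4142000, plus strand: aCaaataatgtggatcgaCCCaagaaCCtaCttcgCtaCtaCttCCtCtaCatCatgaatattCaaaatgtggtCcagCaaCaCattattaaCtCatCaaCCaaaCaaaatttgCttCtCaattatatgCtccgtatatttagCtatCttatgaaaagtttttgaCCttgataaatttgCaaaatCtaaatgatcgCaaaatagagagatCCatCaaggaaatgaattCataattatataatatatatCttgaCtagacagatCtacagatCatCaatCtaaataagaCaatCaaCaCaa
*VFB2*, chr3:18573601-18573900, minus strand: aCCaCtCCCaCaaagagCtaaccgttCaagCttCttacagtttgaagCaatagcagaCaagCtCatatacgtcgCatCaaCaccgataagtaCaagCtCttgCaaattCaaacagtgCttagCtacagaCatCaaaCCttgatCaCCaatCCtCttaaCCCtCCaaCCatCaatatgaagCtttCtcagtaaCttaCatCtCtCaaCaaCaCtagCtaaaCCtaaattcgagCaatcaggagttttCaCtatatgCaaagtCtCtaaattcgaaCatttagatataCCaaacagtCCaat
AT4G06552 pseudogene, chr4:3445601-3445900, plus strand: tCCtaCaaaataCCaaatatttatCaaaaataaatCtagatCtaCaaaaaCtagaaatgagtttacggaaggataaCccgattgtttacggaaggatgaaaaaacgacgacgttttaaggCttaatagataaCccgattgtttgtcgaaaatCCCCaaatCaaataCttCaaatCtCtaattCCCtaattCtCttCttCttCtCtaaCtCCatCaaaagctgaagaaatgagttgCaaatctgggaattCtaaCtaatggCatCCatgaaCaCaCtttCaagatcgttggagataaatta
*RDR2*, chr4:6780801-6781100, minus strand: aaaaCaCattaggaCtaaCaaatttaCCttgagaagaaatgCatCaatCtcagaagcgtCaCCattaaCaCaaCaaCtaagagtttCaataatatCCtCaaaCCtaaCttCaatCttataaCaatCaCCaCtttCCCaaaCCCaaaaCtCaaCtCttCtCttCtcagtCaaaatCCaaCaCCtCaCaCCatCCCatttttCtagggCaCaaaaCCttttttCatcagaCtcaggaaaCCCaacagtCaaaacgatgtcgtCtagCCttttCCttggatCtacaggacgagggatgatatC
*SUVH9*, chr4:7825501-7825700, plus strand: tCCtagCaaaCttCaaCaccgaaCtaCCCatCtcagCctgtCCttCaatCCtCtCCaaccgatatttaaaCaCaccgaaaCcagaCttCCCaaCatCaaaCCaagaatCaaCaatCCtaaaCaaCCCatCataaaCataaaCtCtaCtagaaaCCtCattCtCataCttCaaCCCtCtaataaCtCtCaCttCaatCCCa
*IDN2*, chr3:18033301-18033600, minus strand: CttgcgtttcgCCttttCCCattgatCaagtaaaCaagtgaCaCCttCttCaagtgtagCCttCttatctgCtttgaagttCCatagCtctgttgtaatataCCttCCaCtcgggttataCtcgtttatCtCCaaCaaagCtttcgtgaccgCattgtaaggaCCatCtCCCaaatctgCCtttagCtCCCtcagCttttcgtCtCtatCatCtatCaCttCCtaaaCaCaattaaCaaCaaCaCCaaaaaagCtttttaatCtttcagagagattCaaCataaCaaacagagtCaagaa
The shown strand of the *SUVH9* segment held 63 CHH sites and the other strand 3, so 95.5% lay on the shown strand. That is an extreme case: over all common segments the median was 70.3% and the 95th percentile 90.8%. The *RDR2* segment held 74 on the shown strand and 22 on the other. The *VFB2* segment held 67 and 22, the *IDN2* segment 66 and 24, the intergenic segment 51 and 26, and the AT4G06552 segment 45 and 29.

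The WT list was split by the other lists that share a region. Besides the 948 regions variable in all 3 genotypes, 1138 (21.7%) were shared with mat *nrpd1+/−* alone, 882 (16.8%) with pat *nrpd1+/−* alone and 2286 (43.5%) with neither. Of the 2086 WT regions that were in the mat list, 45.4% were also in the pat list, while of those outside the mat list 27.8% were. Over 300-bp tiles of the chromosomes, 3.77% touched a variable CHH region of mat *nrpd1+/−*, 2.98% one of pat *nrpd1+/−* and 2.69% one of WT. These 3 lists chose the regions, so their overlap is a description and was not tested. Counted in the other lists, 960 mat regions (13.3%) and 953 pat regions (16.3%) overlapped both others.

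**Figure D1:**
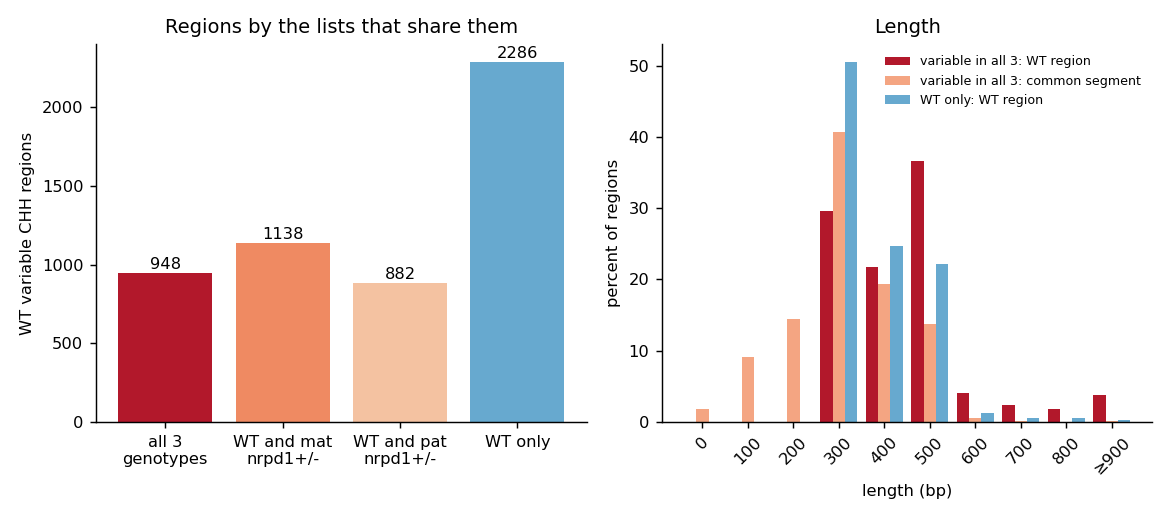
WT variable CHH regions on the 5 nuclear chromosomes. Left, number of regions by the genotypes whose lists share them (bars), from 948 in all 3 to 2286 in WT only. Right, percent of regions (y) by length in bp (x) for the regions variable in all 3 genotypes, their common segment and the WT-only regions; 29.6% of regions variable in all 3 and 50.5% of WT-only regions were 300 bp long.

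The regions variable in all 3 genotypes were longer than the rest of the list. Their WT rows ran from 300 to 1600 bp with a median of 400 and a mean of 453 bp, against a mean of 379 bp for regions variable in WT only. A single 300-bp window, the smallest length in each list, made up 281 of them (29.6%) against 1155 of the WT-only regions (50.5%), and 113 (11.9%) against 60 (2.62%) were over 500 bp. A longer row has more room to meet rows of the other lists, so length is tied to the way the regions were chosen. The rows that they overlapped in the mat and pat lists had medians of 500 and 400 bp.

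The same bases were often listed in every genotype. All but 17 regions had at least 1 base in common to the 3 lists, the common bases made up 69.0% of the 430 kb covered, and the longest common segment had a median of 300 bp (quartiles 200 and 400 bp). In 708 regions (74.7%) the common segment spanned 300 bp or more. Start and end were identical in all 3 lists for 128 regions (13.5%), the longest of which had 600 bp. Because the lists lie on a 100-bp grid, the smallest overlap that passed was 100 bp, which was the smaller of the 2 overlaps in 75 regions. One of these, at chr1:15137501-15137800, met the mat row at 100 bp on one side and the pat row at 100 bp on the other, with no base common to all 3. Just outside the rule were 42 WT regions that were in 1 other list and abutted a row of the second with a gap of 0 bp, such as chr1:835901-836400, which abutted a mat row.

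The 8 common segments named as longest spanned 500 to 900 bp. The longest, of 900 bp at chr2:4141401-4142300, lay between genes, 415 bp downstream of the pseudogene AT2G10605, and was the full length of both the WT and the mat row. The next, of 700 bp at chr3:18573401-18574100, lay in the coding sequence of *VFB2* (AT3G50080), which encodes an F-box protein tied to auxin response and growth. Segments of 600 bp followed in the coding sequences of *EMB3120* (AT3G14900) and AT5G27300. Another of 600 bp lay in a noncoding exon of *HAB1* (AT1G72770), a protein phosphatase that restrains abscisic acid signalling. Further segments of 600 bp lay over a group of genes annotated as neither protein-coding nor pseudogene, and in an intergenic stretch 2495 bp downstream of AT3G44810. That group includes the small nucleolar RNA SNOR37-2 (AT4G15258). Next came 131 segments of 500 bp, of which the first by position, named as the eighth, lay in the coding sequence of AT1G02610. The 4 of these 8 regions in coding sequence differed in how their CHH sites were split between the strands: 81.1% of the sites of the *VFB2* region, 87.1% of the *EMB3120* region, 75.5% of the AT5G27300 region and 61.2% of the AT1G02610 region lay on the richer strand. The longest WT row, of 1600 bp at chr4:11844701-11846300 in AT4G22475 and AT4G22485, held only 600 bp common to all 3 lists, in pieces of 300 bp.

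Regions variable in all 3 genotypes were found on every chromosome, from 150 on chromosome 4 to 218 on chromosome 5, and made up 16.7% of the WT regions of chromosome 1 and 18.1% to 18.8% of those of the other 4. Their density ran from 6.57 per Mb on chromosome 1 to 9.44 on chromosome 2. Gene-poor sequence, here 500-kb bins in which protein-coding genes covered less than 40%, held 284 of them, or 30% (95% exact Clopper-Pearson interval 27.1 to 33.0%), against 904 (39.5%, 37.5 to 41.6%) of the WT-only regions. Such bins made up 21.4% of the chromosomes, and the density was 11.1 per Mb in them and 7.09 per Mb elsewhere. The regions were thus denser in gene-poor sequence than elsewhere. Of the regions shared with mat *nrpd1+/−* or pat *nrpd1+/−* alone, 31.5% (28.9 to 34.3%) and 33.7% (30.6 to 36.9%) lay there. A smaller share than of the WT-only regions was thus common to all classes shared with another list. Intervals here and below cover counting error over regions, which share their libraries. Another region variable in all 3 genotypes lay within 1 kb of 22 of them (2.32%), always as pairs. In the whole WT list 12.6% had another of that list so near. The regions are only 18.0% of that list, so the 2 shares come from lists of unlike density.

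Relative to genes, and with all lengths counted, the regions variable in all 3 genotypes touched protein-coding genes more often than the rest of the WT list. They touched one in 541 cases (57.1%, interval 53.8 to 60.2%), against 934 (40.9%, 38.8 to 42.9%) of the WT-only regions, with 50.7% and 49.2% of the regions shared with mat *nrpd1+/−* or pat *nrpd1+/−* alone in between. Of all 300-bp tiles, 59.2% touched one, but tiles are shorter than most of the regions and so touch a gene less easily. Placed by the middle base, 47.7% (44.5 to 50.9%) of the regions variable in all 3 lay in a protein-coding gene. Of the WT-only regions 32.3% did, and of the tiles 54.1%. By this measure both classes lay below the share of the chromosomes. Coding sequence was touched by 405 (42.7%) of them, by 27.7% of the WT-only regions and by 47.8% of the tiles, so the regions variable in all 3 genotypes lay below the share of the chromosomes. Pseudogenes, the class that holds most transposon-derived genes in this annotation, were touched by 102 (10.8%, 8.86 to 12.9%) against 434 (19.0%, 17.4 to 20.7%) of the WT-only regions and 9.96% of the tiles. The WT-only regions were thus the class that stood apart from the tiles. No annotation of transposons was used, so the share of regions in transposons was not measured, and regions called intergenic may hold them. The 1 kb upstream of a protein-coding gene was touched by 41.9% against 31.6% of the WT-only regions and 26.9% of the tiles, and the 1 kb downstream by 23.7% in both classes and 26.7% of the tiles. The upstream difference was not seen when regions were placed by their middle base, which lay there in 22.3% of the regions variable in all 3 genotypes, 22.4% of the WT-only regions and 21.3% of the tiles. Single 300-bp windows alone set length aside. Of these, 53.4% of 281 regions (47.4 to 59.3%) and 38.6% of 1155 WT-only regions (35.8 to 41.5%) touched a protein-coding gene. For single windows shared with mat *nrpd1+/−* or pat *nrpd1+/−* alone the shares were 49.6% (44.8 to 54.5%) and 47.0% (41.3 to 52.8%). Both of these intervals overlapped that of the regions variable in all 3 genotypes. At this length those regions thus stood apart only from the WT-only regions.

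**Figure D2:**
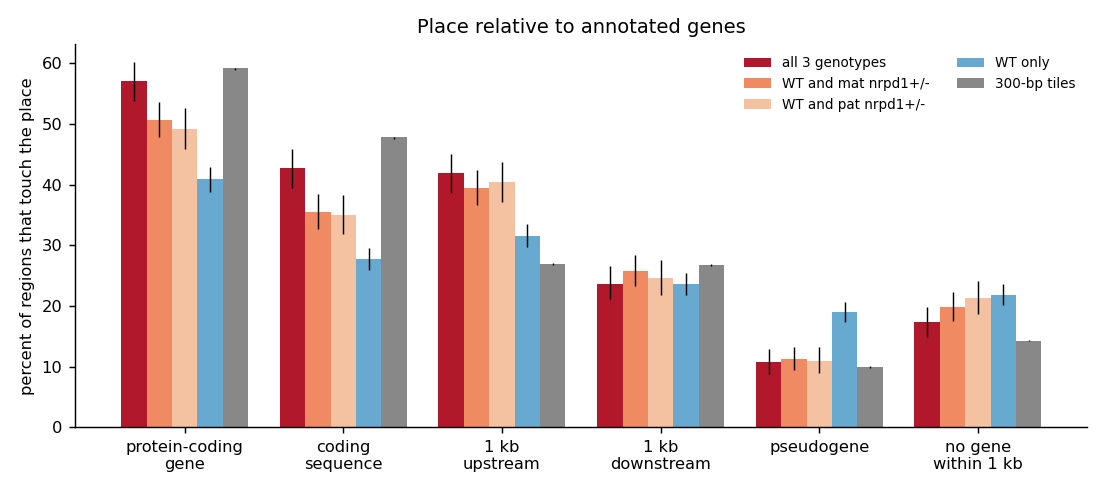
Percent of regions (y) that touch each place relative to annotated genes (x), for regions variable in all 3 genotypes, the other classes of the WT list and 300-bp tiles; error bars are 95% exact binomial intervals over regions. Protein-coding genes were touched by 57.1% of the regions variable in all 3 genotypes and 40.9% of the WT-only regions, pseudogenes by 10.8% and 19.0%.

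Within genes, the regions gathered just past the start. The middle base of 173 regions (18.2%, interval 15.8 to 20.9%) lay 0 to 250 bp downstream of the nearest annotated start of a protein-coding gene. The same bin held 212 (9.27%, 8.12 to 10.5%) of the WT-only regions, 13.9% and 11.9% of the regions shared with mat *nrpd1+/−* or pat *nrpd1+/−* alone, and 5.64% of the tiles. In the next bin, 250 to 500 bp downstream, the shares were 7.17% for the regions variable in all 3 genotypes and 4.46% for the WT-only regions, and in the bin just upstream of the start they were 8.54% and 7.52%. The median distance from the nearest start was 881 bp, against 1478 bp for the WT-only regions and 1316 bp for the tiles. Of the 758 regions that lay wholly inside the maternal-read lists of all 3 genotypes, 18.9% were in the 0 to 250 bp bin, against 8.96% of 1786 WT-only regions. This bin was singled out after its values were seen.

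**Figure D3:**
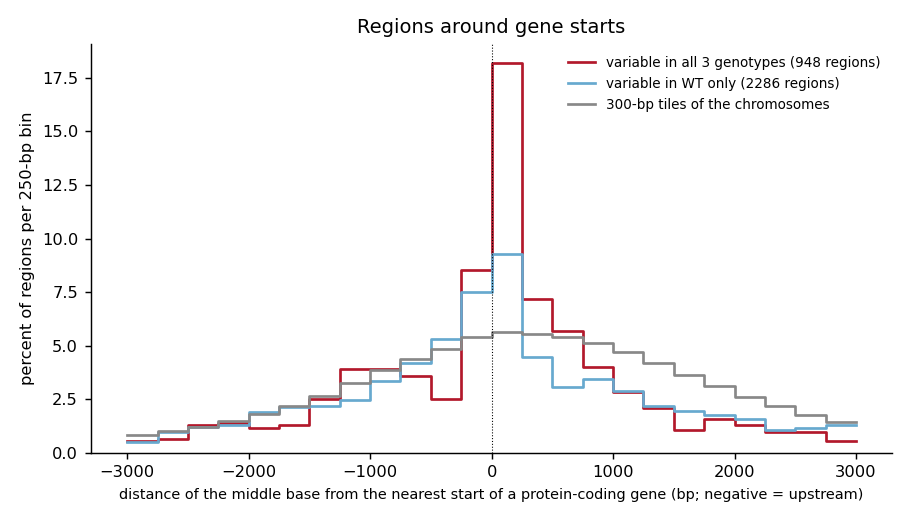
Percent of regions per 250-bp bin (y) by the signed distance of the middle base from the nearest start of a protein-coding gene in bp (x), for the 948 regions variable in all 3 genotypes, the 2286 WT-only regions and 300-bp tiles. The bin from 0 to 250 bp holds 18.2%, 9.27% and 5.64% of them.

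The base composition of the regions differed little from the other classes of the list, but the split of CHH sites between the strands was uneven. Their median GC content was 34.0% (quartiles 30.3 and 38.7%), against 33.3% for the WT-only regions and 36.3% for the tiles. They held a median of 26.7 CHH, 3.6 CG and 3.46 CHG sites per 100 bp over both strands, against 26, 3.50 and 3.50 in the WT-only regions, and 26.7, 4.0 and 5.0 in the tiles. The sequences CAA and CTA, which are sites that CMT2 prefers, made up a median of 26.4% of their CHH sites, against 28.8% in the WT-only regions and 28.2% in the tiles.

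The strand with more CHH sites held a median of 67.5% of them (quartiles 60 and 75.6%), against 63.0% (56.6 and 70.5%) in the WT-only regions and 57.8% (53.7 and 63.4%) in the tiles. More than 70% of the CHH sites lay on 1 strand in 392 of the 948 regions (41.4%, interval 38.2 to 44.6%), in 35.4% and 34.6% of those shared with mat *nrpd1+/−* or pat *nrpd1+/−* alone, in 600 of the 2286 WT-only regions (26.2%, 24.5 to 28.1%) and in 9.21% of the tiles. Over single windows the shares past 70% were 45.2% (39.3 to 51.2%) and 26.2% for the regions variable in all 3 genotypes and the WT-only regions. For those shared with mat *nrpd1+/−* or pat *nrpd1+/−* alone they were 39.7% (35.0 to 44.6%) and 39.1% (33.6 to 44.9%). These 2 intervals overlapped that of the regions variable in all 3 genotypes. Within the common segments the median was 70.3%. These held fewer CHH sites (median 83 against 114 in the regions), which by itself can raise the share on the richer strand, and no other class has such segments. The measure was chosen after the printed sequences had been seen. How many cytosines per strand were read is not in the lists, so the part that coverage has in this result was not tested.

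Which strand was richer followed the position in the gene. Of the 172 regions centred in a protein-coding gene within 250 bp of its start, 149 (86.6%) had more CHH sites on the sense strand, against 86.1% and 90.5% of those shared with mat *nrpd1+/−* or pat *nrpd1+/−* alone, 80.2% of 212 WT-only regions and 67.2% of the tiles there. Between 250 and 1000 bp from the start, 53 of 153 (34.6%) did, against 42.1% and 34.3% of the regions shared with 1 mutant genotype, 38.6% of the WT-only regions and 32.3% of the tiles. Farther than 1000 bp, 11 of 80 (13.8%) did, and in the other 69 the antisense strand was richer. The sense strand was richer there in 17.3% and 21.9% of the regions shared with 1 mutant genotype, 24.2% of the WT-only regions and 27.8% of the tiles. The direction in each stretch was thus that of the tiles, and near the start the regions variable in all 3 genotypes did not stand apart from those shared with 1 mutant genotype.

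**Figure D4:**
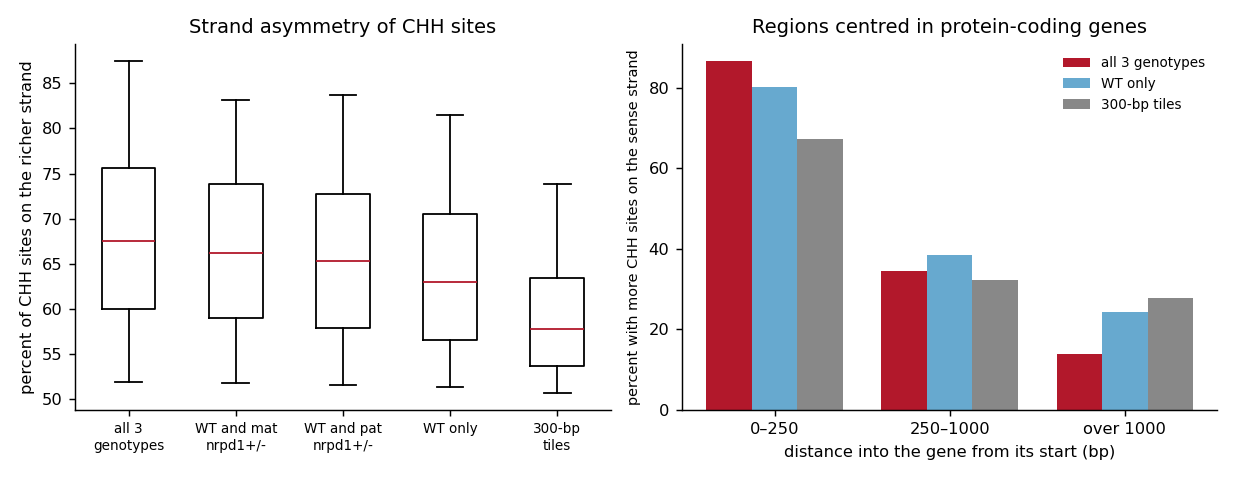
Left, percent of CHH sites on the richer strand (y) by class (x); boxes are quartiles with the median, whiskers the 5th and 95th percentiles over regions, and the axis does not start at 0. Right, percent of regions centred in protein-coding genes (y) that had more CHH sites on the sense strand, by distance from the gene start in bp (x). The median is 67.5% for the regions variable in all 3 genotypes and 57.8% for tiles, and the sense strand is richer in 86.6% of those within 250 bp of a start.

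Most of the regions lay in sequence that occurs once in the genome. In 825 (87.0%) no stretch of 60 bases recurred elsewhere on either strand, against 77.3% of the WT-only regions and 85.6% of the tiles. With stretches of 40 bases these shares were 77.2%, 66.1% and 79.0%, so the order against the tiles turned. More than 50% of the 60-base stretches were repeated in 0 of the 948, in 0.780% of the whole WT list and in 4.38% of the tiles. With 40-base stretches the shares were 1.16%, 2.82% and 6.09%. The whole WT list thus lay below the tiles in this measure. Only 26 regions (2.74%) shared 20 or more stretches of 25 bases with another region variable in all 3 genotypes, in 10 groups. The largest groups had 5 regions each. One was a run between 15.1 and 15.2 Mb of chromosome 1 (chr1:15091401-15092000 to chr1:15206601-15207800), outside annotated genes. The other comprised regions in pseudogenes on chromosomes 3, 4 and 5, AT3G43863, AT4G06506, AT4G06573, AT4G06735 and AT5G35057, of which 4 had the same 400 bp length of common segment.

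The maternal-read lists hold the sequence in which the share of reads from the maternally inherited genome passed the filter of the authors. Of the 948 regions, 763 (80.5%) lay wholly inside the list of mat *nrpd1+/−*, 895 (94.4%) inside that of pat *nrpd1+/−* and 898 (94.7%) inside that of WT. These lists covered 75.6%, 92.0% and 91.9% of the chromosomes. Of the whole WT list of variable CHH regions, 79.6%, 92.7% and 92.8% lay inside them, so the regions variable in all 3 genotypes were near the share of that list. The 133 regions that were inside the pat and WT lists but not the mat list lay on chromosome 1 (80), chromosome 2 (30), chromosome 5 (22) and chromosome 3 (1). These counts by chromosome describe where the mat list has gaps and have no share of the WT list beside them. The median of the deposited maternal fraction at the regions was 0.632 in mat *nrpd1+/−*, 0.639 in pat *nrpd1+/−* and 0.634 in WT, with 1 value per block and genotype from pooled replicates. The WT-only regions had 0.632, 0.639 and 0.633 in the same order.

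Overlap with replicate differences in the CG context was not detected. None of the 948 overlapped a variable CG region of mat *nrpd1+/−*, pat *nrpd1+/−* or WT, and a count of 0 allows a share of up to 0.316% for each, taking 3 counts of 948 as the one-sided limit (the exact two-sided 95% interval reached 0.388%). Of the tiles, 0.423%, 0.0982% and 0.0572% overlapped the lists of these genotypes, so both limits lay below the share of tiles for mat *nrpd1+/−* but above it for pat *nrpd1+/−* and WT. In the whole WT list, 7, 2 and 2 of 5254 regions did. Within 500 bp, 8 regions (0.844%) had a variable CG region of some genotype, and 18 (0.787%) of the WT-only regions did. Of the 131 variable CG regions of WT, 0 were in both other CG lists.

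Differences in CG methylation between genotypes, which the authors called from pooled replicates, lay at 15 of the regions (1.58%, interval 0.888 to 2.60%), against 1.76% and 1.81% of the regions shared with mat *nrpd1+/−* or pat *nrpd1+/−* alone, 30 (1.31%) of the WT-only regions and 0.903% of the tiles. The interval takes in the shares of the other classes, and the order turned at matched length: of single windows, 2 of 281 (0.712%) regions variable in all 3 genotypes and 16 of 1155 (1.39%) WT-only regions overlapped one. Within 500 bp, 2.95% and 3.32% had one. A CG DMR between mat *nrpd1+/−* and WT overlapped 6 regions (0.633%, tiles 0.275%), with 4 higher and 2 lower in mat *nrpd1+/−*. One between pat *nrpd1+/−* and WT overlapped 5 (0.527%, tiles 0.334%), with 2 higher and 3 lower in pat *nrpd1+/−*. One between mat *nrpd1+/−* and pat *nrpd1+/−* overlapped 9 (0.949%, tiles 0.554%), with 6 higher and 3 lower in mat *nrpd1+/−*. The 3 comparisons share samples, and 5 of the 15 regions were in 2 of them.

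The largest CG difference was at chr3:16070701-16071200, at the start of the protein-coding gene AT3G44440. There CG methylation was 56.0 points lower in pat *nrpd1+/−* than in WT (deposited difference −56.0), and 50.6 points higher in mat *nrpd1+/−* than in pat *nrpd1+/−*. In the pseudogene AT4G06552 (chr4:3445601-3446100) it was 50.9 points higher in mat *nrpd1+/−* than in WT, and 645 bp downstream of the pseudogene AT2G13160 (chr2:5444701-5445300) it was 43.5 points higher. At *EXT12* (AT4G13390, chr4:7784701-7785400), an extensin of the cell wall, the difference between mat *nrpd1+/−* and pat *nrpd1+/−* was −41.1 points. The intergenic region chr4:9956101-9956600 had differences of −40.6 points in mat *nrpd1+/−* against WT and −36.9 points in mat *nrpd1+/−* against pat *nrpd1+/−*, and chr4:5474101-5474600 had −33.6 and −35.0 points. In the pseudogene AT3G42806 (chr3:14917801-14918200) the differences were 39.9 points for mat *nrpd1+/−* against pat *nrpd1+/−* and −31.1 points for pat *nrpd1+/−* against WT, although its mat and pat rows did not meet. A region 79 bp upstream of the pseudogene AT3G44205 (chr3:15915401-15915700) had 38.0 points in mat *nrpd1+/−* against WT. One 389 bp upstream of the pseudogene AT5G28525 (chr5:10510501-10510900) had 33.5 points in mat *nrpd1+/−* against pat *nrpd1+/−* and −30.4 points in pat *nrpd1+/−* against WT. In the pseudogene AT3G31373 (chr3:12741901-12743400) mat *nrpd1+/−* was 33.0 points above pat *nrpd1+/−*. Of the 15 regions, 10 lay in gene-poor bins, 5 touched a protein-coding gene, 3 a pseudogene and 7 no gene. Each value is a pooled difference with no error, and only values of at least 30 points are listed. A value belongs to a DMR that overlapped the region and need not cover it. At AT4G06552, chr2:5444701-5445300 and *EXT12* the DMR lay outside the common segment, and the AT3G42806 region had no base common to all 3 lists.

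CHH DMRs between genotypes were nearly absent from the regions, since the authors left variable sequence out of those lists. Of the 948, 0 overlapped a CHH DMR of mat *nrpd1+/−* or pat *nrpd1+/−* against WT, which the filter makes so. The comparison of mat *nrpd1+/−* with pat *nrpd1+/−* did not drop sequence that varied in WT, and 3 regions met one of its CHH DMRs in the part outside their mat and pat rows (1.04% of tiles did). These were chr2:4652501-4653600, with CHH methylation 43.2 points higher in mat *nrpd1+/−*, chr1:16850901-16851800 in *CH1* (AT1G44446), which encodes the chlorophyllide a oxygenase that makes chlorophyll b, with 18.3 points, and chr3:12741901-12743400 in AT3G31373, with 10 points. Within 1 kb, 125 regions (13.2%) had a CHH DMR of some comparison, against 612 (26.8%) of the WT-only regions and 10.3% of the tiles. The WT-only regions could themselves overlap a DMR of mat *nrpd1+/−* against pat *nrpd1+/−*, and 327 did, so these shares are set in part by the filter.

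Genes of the methylation machinery were looked up last. A region variable in all 3 genotypes lay in or within 1 kb of 928 of the 27444 protein-coding genes (3.38%). Of 37 genes that place, maintain or remove DNA methylation, 6 had one: 3 of 24 in RNA-directed DNA methylation and 3 of 13 in maintenance and removal. These genes are long, with medians of 4.91 and 6.06 kb against 2.08 kb for all protein-coding genes, so they offer more room. Any region of the WT list lay in or within 1 kb of 6 of the 24 and 3 of the 13, against 16.1% of all protein-coding genes. Of 19 imprinted and Polycomb genes and of 6 genes of endosperm development, 0 had one, while any region of the WT list lay so near 2 and 0 of them. The lists were chosen with earlier results known and are small, so the counts are a description.

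All 6 regions overlapped the gene itself. The region in *RDR2* (AT4G11130), the RNA-dependent RNA polymerase that makes the transcripts of Pol IV double-stranded, spanned chr4:6780701-6781200 with the same start and end in all 3 lists, as did the one in *DME* (AT5G04560), the DNA glycosylase that removes methylation from the maternal genome before fertilization, at chr5:1309501-1310000. In *SUVH9* (AT4G13460), which helps recruit RNA polymerase V to methylated DNA, it was chr4:7825401-7825800, with 200 bp in common. A CG DMR that overlapped 200 bp of the *SUVH9* region was 30.9 points higher in pat *nrpd1+/−* than in WT. In *IDN2* (AT3G48670), a double-stranded RNA-binding protein of the same pathway, it was chr3:18033101-18033600, in *SUVH6* (AT2G22740), a histone H3 lysine methyltransferase, chr2:9666401-9666900, and at the start of *MET1* (AT5G49160), the maintenance CG methyltransferase, chr5:19932001-19932300. The *MET1* region was centred 37 bp past the start and held 59 CHH sites on the sense strand and 16 on the antisense strand. In the other 5 the antisense strand was richer: 103 antisense and 54 sense sites in *RDR2*, 103 and 47 in *DME*, 104 and 20 in *SUVH9*, 107 and 45 in *IDN2* and 97 and 28 in *SUVH6*, with centres 387 to 2682 bp from the start.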

How the data were processed

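Whole-genome bisulfite libraries of hand-dissected endosperm (post-bisulfite, random-primed kit, non-directional) were read for 3 genotypes with 2 replicates each. Per the labels and the methods of the study, the authors trimmed reads with Trim Galore, ran FastQC, aligned them to TAIR10 with Bismark, averaged methylation in overlapping 300-bp windows with minimum numbers of cytosines and reads, and called regions that differed between the 2 replicates of a genotype as variable. Whether the thresholds were those of the DMRs is not given in the sources used here. They deposited 15 lists. The 3 lists of variable CHH regions and 3 of variable CG regions hold positions only. The DMR lists hold the authors' pooled differences in percentage points (heterozygote minus WT, or mat *nrpd1+/−* minus pat *nrpd1+/−*), at least 30 for CG and 10 for CHH, and were used only to place DMRs on the regions and give their size. The maternal-read lists hold the maternal share of reads as a fraction, as deposited. All columns of numbers come from pooled replicates, so no spread and no test between genotypes could be computed, and depth per sample is unknown. Alignment of L*er* reads to a Col-0 genome can affect which cytosines were read.

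Overlaps were computed with pandas 2.3.3 and numpy 2.4.6 in Python 3.11.15 and checked on simulated lists. Chromosome lengths of RefSeq TAIR10.1 equalled those of the files, so its annotation and sequence were used, and coordinates are counted from 1. Tiles are consecutive 300-bp pieces of the 5 chromosomes, which also hold sequence that could not be called. Exact Clopper-Pearson intervals used scipy 1.17.1. Rows on organelle genomes (2 of mat *nrpd1+/−* and 1 of WT) were left out. Named regions were the 8 longest common segments, the 10 with the largest CG DMR, those in fixed-list genes, and those nearest the overlap limit. Sequences that held a noncoding exon were not printed. The members and gene lists were chosen with earlier results of these data known.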

Additional observations from a re-analysis of the deposited data

How the results depend on the processing

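Of 58 alternative settings over 26 results, 24 stayed within 1.5 times the count or within the 95% interval of the value, and 34 moved. None of these values has a sign to turn, but some orders between classes did: by the middle base, 22.3% against 22.4% of WT-only regions lay upstream; over single windows, 0.712% against 1.39% of WT-only regions and 0.903% of tiles had a CG DMR, and within 500 bp 2.95% against 3.32% of WT-only regions; with 40-base stretches, 77.2% against 79.0% of tiles held no repeat. The count of 948 ran from 758 to 960 under other overlap minimums, lists and filters, among them 807 with at least 50% of the WT region overlapped by each list, but was 410 with regions longer than 1 window in all 3 lists. Within 500 bp, the share with a variable CG region was 0.844%, with a CG DMR 2.95% and with a CHH DMR 8.76%. Within 2 kb, the share with a CHH DMR was 20.7%. Gene-poor bins under 30% genic held 24.7%. Pairs within 500 bp or 2 kb took in 0.844% and 4.64%. Placed by the middle base, 47.7% lay in protein-coding genes, 8.12% in pseudogenes, 22.3% upstream, 16.6% downstream and 22.6% far from genes. Of the tiles, 54.1% lay in protein-coding genes and 8.78% in pseudogenes by this measure, so for pseudogenes the order against the tiles turned. Over single windows the shares were 53.4% in protein-coding genes, 35.2% upstream, 20.3% downstream, 20.6% far from genes and 0.712% with a CG DMR. With 500-bp flanks, 32.2% lay upstream, 16.2% downstream and 23.0% far from genes, and with 2-kb flanks 55.2%, 39% and 13.2%. Median GC content was 33.3% over single windows. CG sites per 100 bp were 3.33 over single windows and common segments, and CHG sites 3.0 over common segments. A repeated stretch was held by 10.3% of common segments, 9.25% of single windows and 22.8% of regions with 40-base stretches, against 13.0%. Among settings chosen after seeing the data, the median share on the richer strand was 70.3% in common segments and 68.8% in single windows, and 25.4% lay 0 to 500 bp past a start. Shares counted within another distance move with that distance, and why the other values moved was not tested.

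Limits: the lists hold no level, depth or value per replicate, so how far the replicates differed and in which direction is unknown, and no replicate was left out, since the lists give none apart. No paired analysis was possible because each list compares or pools the 2 replicates of a genotype and no result comes from a test. Windows with too few reads are not marked, so absence from a list is not evidence of equal replicates, and shares over tiles include such windows.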
